A study of Mus musculus with 38 samples.

Results

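Abhd6, Abhd2, Mgll and Lipa, 4 of the 54352 genes counted, encode hydrolases that cleave fatty acids from acylglycerols and other lipid esters, and their transcripts were followed in mouse intestinal organoids given an agonist of the nuclear receptor PPARδ. The rows were found by their Ensembl identifiers in the mouse GENCODE annotation. Abhd6 was chosen by its higher level with the agonist in wild-type organoids, and the other 3 genes were grouped with it by enzyme function. Values of that comparison are therefore given as descriptions with no test.

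Crypts of C57BL6 mice were embedded in 65% matrigel and grown as organoids for 8 days and 2 passages, with 1 uM GW501516 (GW, a synthetic PPARδ agonist) or with 0.1% DMSO as vehicle. The genotypes were D, labelled Ppard-fl/fl, A, labelled Ppara-null, DA, carrying both of these alleles, and WT, wild type. PPARδ is the product of Ppard, and PPARα, a receptor of the same family, that of Ppara. No label names a recombinase for the floxed allele, an age or the number of animals behind a library. GW and vehicle had 3 and 5 libraries in D, 5 and 5 in A, 5 and 4 in DA, and 5 and 5 in WT. Polyadenylated RNA was read by 3′ digital gene expression, in which reads come from the 3′ end of each transcript. A further sample, titled as GW in D but labelled with both alleles, was given no group, and its column may be among the 3 used for GW in D.

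In absorptive cells of the small intestine, fatty acids and monoacylglycerols from food are rebuilt into triacylglycerols and are either exported in lipoproteins or stored in droplets. Stored triacylglycerols are broken down stepwise by lipases, and monoacylglycerol lipases take the last fatty acid off the glycerol, while lipids delivered to lysosomes are cleaved there by an acid lipase. PPARα and PPARδ bind fatty acids and switch on genes of fatty acid use, pairing with RXR on direct repeats related to AGGTCA.

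Library totals ran from 353347 to 577557 counts, with a median of 483848. Ppara had group means of 3.30 and 3.64 CPM (a gene's counts per 1000000 counts of its library) for GW and vehicle in A and of 3.80 and 2.01 CPM in DA, against 16.4 and 17.3 CPM in WT. In D it had 2.82, 12.8 and 28.3 CPM in the 3 GW libraries, and 2.83 to 17.5 CPM with vehicle. Single libraries reached 6.03 CPM with GW in A and fell to 4.71 CPM with GW in WT. Ppara therefore does not settle the genotype of a single library. Ppard had between 0 and 4 counts in any library, too few to check the floxed allele. Markers of epithelium, enterocytes, Paneth cells and goblet cells were present, whereas the immune genes Ptprc, Adgre1, Cd3e and Cd79a, the fibroblast genes Col1a1, Col1a2, Col3a1 and Pdgfra and the adipocyte genes Adipoq, Fabp4 and Lep were at 0 in every library. The other listed markers of these types had counts: Cd68 and Lyz2 had 15 and 29 over all libraries, Vim and the endothelial gene Pecam1 had 3 and 480, with Pecam1 in all 37, and Plin1 had 1. Summed stromal markers were between 12.7 and 54.3 CPM in the libraries. The column names fall into 2 runs of library numbers, 1 to 36 with 23 libraries and 37 to 60 with 14, and no label says what the runs are.

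Abhd6 (ENSMUSG00000025277, chr14:8002902-8056763, plus strand, GRCm38) encodes a membrane-bound monoacylglycerol lipase that also degrades endocannabinoid lipids. It had 1270 counts over the 37 libraries, between 11 and 68 in each, and no other annotated gene overlaps it. Lipa (ENSMUSG00000024781, chr19:34492318-34527474, minus strand) encodes lysosomal acid lipase, which cleaves cholesteryl esters and triacylglycerols, and had 680 counts, between 5 and 33 per library. Their RefSeq promoter windows, from 250 bases before to 50 after the annotated start in GRCm38.p6, are shown because Lipa was the member whose levels ran closest to those of Abhd6. They lie at chr14:8002638-8002937 on the plus strand and at chr19:34527425-34527724 on the minus strand, each written 5′ to 3′ along the gene, with capitals marking CCAAT and GGGCGG on either strand.
Abhd6: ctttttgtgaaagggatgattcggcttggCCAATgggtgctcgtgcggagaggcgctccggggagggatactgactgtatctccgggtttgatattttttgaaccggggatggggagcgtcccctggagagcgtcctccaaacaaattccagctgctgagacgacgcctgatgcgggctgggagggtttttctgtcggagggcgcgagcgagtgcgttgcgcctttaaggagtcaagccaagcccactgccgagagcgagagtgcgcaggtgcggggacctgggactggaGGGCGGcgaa
Lipa: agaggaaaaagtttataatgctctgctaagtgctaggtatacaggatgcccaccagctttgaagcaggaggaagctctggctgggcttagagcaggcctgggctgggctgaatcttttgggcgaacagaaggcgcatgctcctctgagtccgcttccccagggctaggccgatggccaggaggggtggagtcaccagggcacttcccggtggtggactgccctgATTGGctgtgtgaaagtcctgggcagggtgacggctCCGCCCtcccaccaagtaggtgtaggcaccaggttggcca

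CCAAT and GGGCGG, picked after the windows had been seen, stood in 37.4% and 35.7% of the 32851 windows of that length. CCAAT was found 221 bases before the Abhd6 start, but not in the second annotated Abhd6 window, and, on the opposite strand, 26 bases before the Lipa start. The Abhd2 window also held it, at 194 and 132 bases before the start, and the Mgll windows did not, while GGGCGG was in all 6 windows. AGGTCA was in 16.3% of all windows and its direct repeat with 1 base between the copies in 0.0396%, and neither was in any of the 6 windows of the 4 genes on either strand. These matches describe the letters of the windows only.

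The mean level of Abhd6 with GW was above that with vehicle in D, A and WT and below it in DA. The fold was 1.97 in A, where it passed the test, and 2.92 in WT, where it is a description. In A, Abhd6 had 80.1, 101, 111, 96.5 and 118 CPM with GW, against 68.4, 66.1, 37.8, 48.2 and 42.1 CPM with vehicle. All 5 GW libraries lay above all 5 vehicle libraries, as did those of 0.449% of the 4902 genes tested. Group means were 101 ± 14.5 CPM with GW and 52.5 ± 14.0 CPM with vehicle (SD, n = 5 each). The log2 fold change was 0.98 with a standard error of 0.19 and a 95% interval from 0.58 to 1.37, and it passed in the quasi-likelihood test of edgeR after Benjamini-Hochberg adjustment over all genes (adjusted p = 0.00789). Abhd6 was thus 1 of 14 genes, 0.286% of those tested, that rose in A. The adjusted p by this test was at most 0.0446 when any single library of the comparison was left out. It was 0.0607 when only the libraries of A were fitted, and 0.921 and 0.0600 in the first and the second run of library numbers, where the log2 fold changes were 0.79 and 1.27.

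In D, Abhd6 had 111, 87.7 and 76.1 CPM with GW, against 54.8, 53.8, 57.1, 46.8 and 73.5 CPM with vehicle. Every GW library was above every vehicle library, as for 1.04% of genes. Means were 91.6 ± 17.8 CPM with GW and 57.2 ± 9.88 CPM with vehicle (SD, n = 3 and 5). The log2 fold change of 0.69 (standard error 0.22, 95% interval 0.25 to 1.14) did not pass (edgeR adjusted p = 0.9999). By edgeR 0 of the 4902 genes (0%) passed in D, and 159 (3.24%) had an unadjusted p under 0.05. DESeq2 and limma also called 0. The change was 0.80 in the first run of library numbers and 0.33 in the second, which held 1 GW library.

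In DA, Abhd6 had 62.5, 55.7, 39.3, 58.1 and 46.9 CPM with GW, against 59.0, 68.6, 51.4 and 71.9 CPM with vehicle. The groups overlapped, with 2 GW libraries below every vehicle library and none above them all. All GW libraries were above all vehicle libraries for 0.51% of genes, and below them for 0.347%. Means were 52.5 ± 9.34 CPM with GW and 62.7 ± 9.32 CPM with vehicle (SD, n = 5 and 4). The log2 fold change was −0.26 (standard error 0.21, 95% interval −0.69 to 0.17, edgeR adjusted p = 0.9998). None of the genes passed in DA by edgeR (0%), 157 (3.2%) had an unadjusted p under 0.05, DESeq2 called 1 and limma 0.

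In WT, the comparison by which Abhd6 was chosen, it had 123, 152, 125, 133 and 105 CPM with GW, against 54.0, 20.8, 31.7, 58.4 and 51.2 CPM with vehicle. Means were 128 ± 17.3 CPM with GW and 43.2 ± 16.2 CPM with vehicle (SD, n = 5 each), and the log2 fold change was 1.54 with a standard error of 0.20. Every GW library was above every vehicle library, as for 0.714% of genes, and 20 genes, 0.408%, passed as higher in that comparison. The difference was 1.91 in the first run of library numbers, which holds the 2 lowest vehicle values, and 1.04 in the second.

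**Figure D1:**
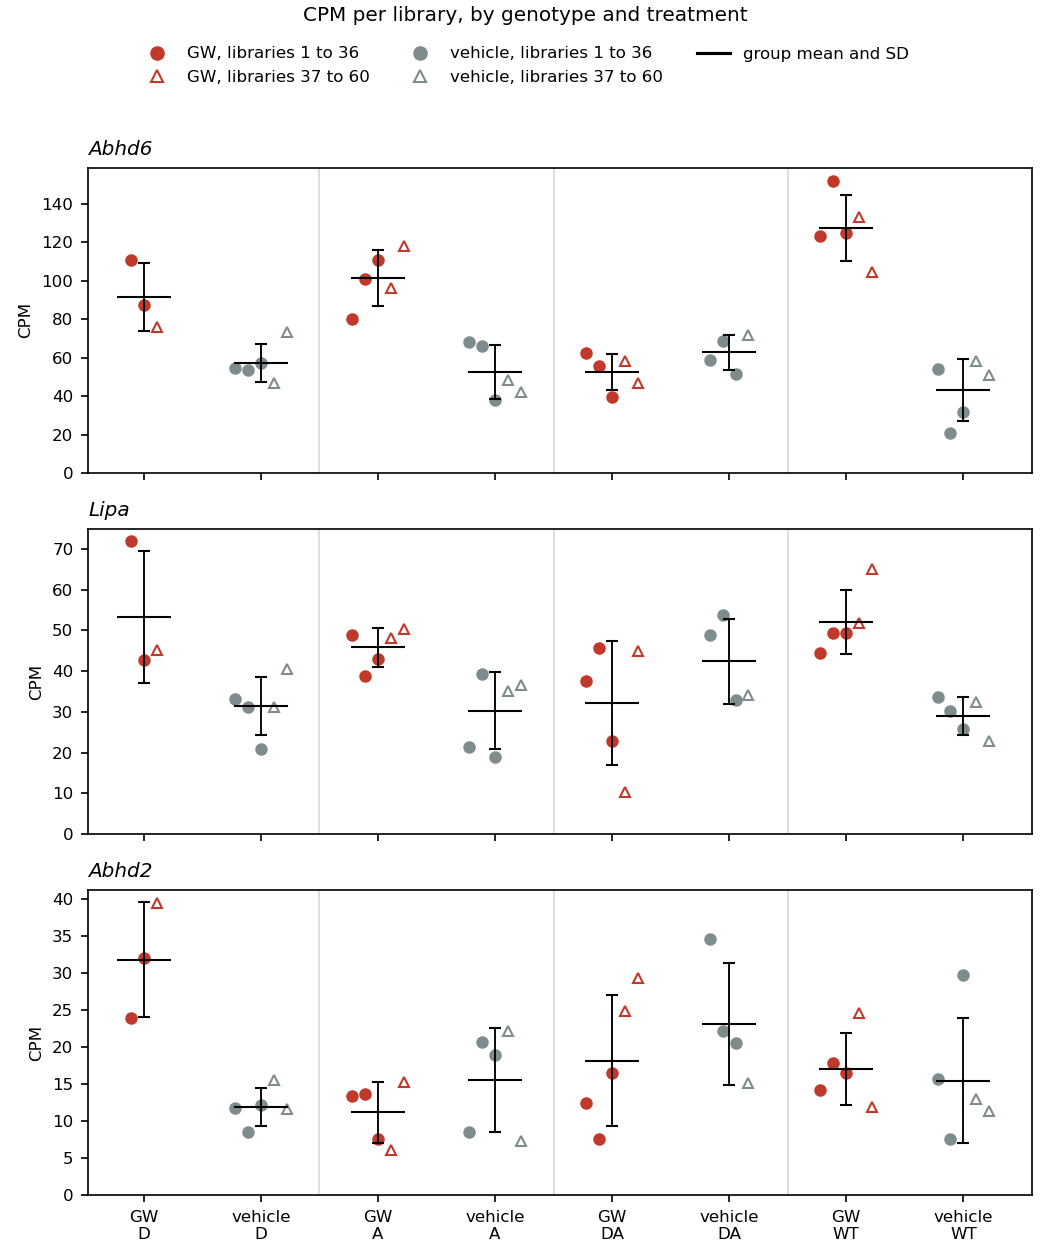
CPM of Abhd6, Lipa and Abhd2 in each library (points; circles for libraries 1 to 36, triangles for 37 to 60), by genotype with GW left of vehicle, with bars for the group mean and SD. Abhd6 in GW libraries lies above vehicle libraries in D, A and WT and among or below them in DA.

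The difference of the GW response between genotypes was tested where it holds no WT library. For Abhd6 the response in DA minus that in A was −1.23 on the log2 scale, with a standard error of 0.29 and a 95% interval from −1.82 to −0.65. It did not pass after adjustment over all genes (edgeR unadjusted p = 0.000118, adjusted p = 0.288), and 0% of genes did: 149 had an unadjusted p under 0.05, DESeq2 called 0 and limma 1. The response in DA minus that in D was −0.95 (95% interval −1.57 to −0.33), and the response in D minus that in A was −0.28 (95% interval −0.88 to 0.32). Neither passed, and edgeR called 0% of genes in each, with 135 and 113 at an unadjusted p under 0.05, 1 and 1 called by DESeq2 and 0 and 0 by limma. In the first and the second run of library numbers the D minus A value was 0.01 and −0.94. As descriptions that hold the WT comparison, the response minus that in WT was −0.85 ± 0.30 in D, −0.57 ± 0.28 in A and −1.80 ± 0.29 in DA (log2 difference ± standard error). The value for A was −1.12 in the first run of library numbers and 0.23 in the second.

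Ordered by mean CPM, Abhd6 was highest with GW in WT, then A, then D, and lower with vehicle in DA, D and A, with GW in DA, and with vehicle in WT. Neighbouring groups in this order overlapped, except that every library of GW in D was above every library of vehicle in DA. Under vehicle, the log2 differences from WT were 0.44 ± 0.21 in D, 0.23 ± 0.21 in A and 0.50 ± 0.22 in DA (± standard error). They use the WT vehicle libraries by which the gene was chosen and share them with each other, so no test is given. The difference of A from WT was 0.67 in the first run of library numbers and −0.35 in the second.

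Lipa also had higher mean levels with GW in D, A and WT and a lower one in DA, but no tested difference passed. In D, Lipa had 71.8, 42.8 and 45.1 CPM with GW, against 33.2, 31.1, 20.8, 31.2 and 40.6 CPM with vehicle. Every GW library was above every vehicle library there, as for 1.04% of genes, and 1 GW library stood above the other 2. In A, it had 49.0, 38.9, 42.9, 48.2 and 50.2 CPM with GW, against 21.4, 39.3, 18.9, 35.2 and 36.6 CPM with vehicle. There 4 of 5 GW libraries were above all vehicle libraries. In DA, it had 37.5, 45.6, 22.7, 10.4 and 44.9 CPM with GW, against 48.8, 53.8, 32.9 and 34.1 CPM with vehicle. The DA groups overlapped, and the lowest GW library, with 5 counts, was the lowest of all libraries. In WT, as a description, Lipa had 44.4, 49.3, 49.4, 51.8 and 65.1 CPM with GW, against 33.7, 30.3, 25.8, 32.4 and 22.8 CPM with vehicle. There every GW library was above every vehicle library, as for 0.714% of genes.

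The log2 fold changes of Lipa with GW were 0.79 ± 0.28 in D, 0.61 ± 0.25 in A and −0.40 ± 0.26 in DA, and 0.81 ± 0.24 in WT (± standard error). In D, A and DA the adjusted p of edgeR's quasi-likelihood test was 0.9999, 0.9994 and 0.9998. Leaving out single libraries gave log2 fold changes between 0.50 and 0.94 in D and between −0.56 and −0.17 in DA. In the first and the second run of library numbers they were 0.99 and 0.32 in D, where the second run held 1 GW library. They were 0.74 and 0.48 in A, −0.35 and −0.28 in DA, and 0.64 and 1.03 in WT. The response in DA minus that in A was −1.01 (95% interval −1.74 to −0.29), and that in DA minus that in D was −1.19 (95% interval −1.96 to −0.42). The response in D minus that in A was 0.18 (95% interval −0.58 to 0.93), with values between −0.16 and 0.33 over the settings run, and none of these passed. Under vehicle, Lipa was 0.11 ± 0.26, 0.01 ± 0.26 and 0.49 ± 0.26 above WT on the log2 scale in D, A and DA, without a test as these share the WT libraries.

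Abhd2 (ENSMUSG00000039202, chr7:79273199-79365508, plus strand) encodes an acylglycerol lipase that responds to progesterone in human sperm. It had 301 counts, between 3 and 17 per library, and 3 other annotated genes overlap it, so reads may be shared among them. In D, Abhd2 had 23.9, 32.1 and 39.5 CPM with GW, against 11.7, 8.49, 12.1, 15.6 and 11.6 CPM with vehicle. All 3 GW libraries were above all vehicle libraries, as for 1.04% of genes, with means of 31.8 ± 7.76 CPM with GW and 11.9 ± 2.52 CPM with vehicle (SD, n = 3 and 5). The log2 fold change of 1.37 (standard error 0.38, 95% interval 0.60 to 2.14) did not pass (edgeR unadjusted p = 0.000956, adjusted p = 0.781).

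In the other genotypes the Abhd2 groups overlapped. With GW it ranged from 6.03 to 15.3 CPM in A, against 7.32 to 22.2 CPM with vehicle, and the log2 fold change was −0.42 ± 0.38. With GW it ranged from 7.59 to 29.3 CPM in DA, against 15.1 to 34.6 CPM with vehicle, and the log2 fold change was −0.31 ± 0.34. That DA value was −1.01 in the first run of library numbers and 0.83 in the second. In WT, as a description, it ranged from 11.8 to 24.7 CPM with GW, against 7.56 to 29.7 CPM with vehicle, with a log2 fold change of 0.08 ± 0.36 that was −0.15 and 0.46 in the first and the second run. The response in D minus that in A was 1.79 (95% interval 0.69 to 2.88) and that in DA minus that in D was −1.68 (95% interval −2.72 to −0.64), and neither passed by edgeR (adjusted p = 0.999 and 0.9997). Both rest on the 3 GW libraries of D, among which the sample of unclear genotype may be. The vehicle level differed from WT by −0.34 ± 0.37 in D, −0.07 ± 0.36 in A and 0.51 ± 0.35 in DA (log2, ± standard error), with opposite signs in the runs for D and for A.

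Mgll (ENSMUSG00000033174, chr6:88724412-88828360, plus strand) encodes monoacylglycerol lipase, the main enzyme of monoacylglycerol breakdown in brain and adipose tissue. It had 4 counts in all, 1 in each of 4 libraries, and 5 other annotated genes overlap it. The counts were in 1 library of GW in A, 1 of vehicle in DA and 2 of GW in WT, and every other library had 0. A count of 0 allows up to 3 counts over a group, which is a level of at most 1.21 to 2.34 CPM in the 5 groups without a count, covering counting error only. Mgll did not pass the filter on low counts. With at most 1 count in D, A or DA, a permutation p is fixed by the group sizes, so none is given, and a difference was not detectable at this depth.

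**Figure D2:**
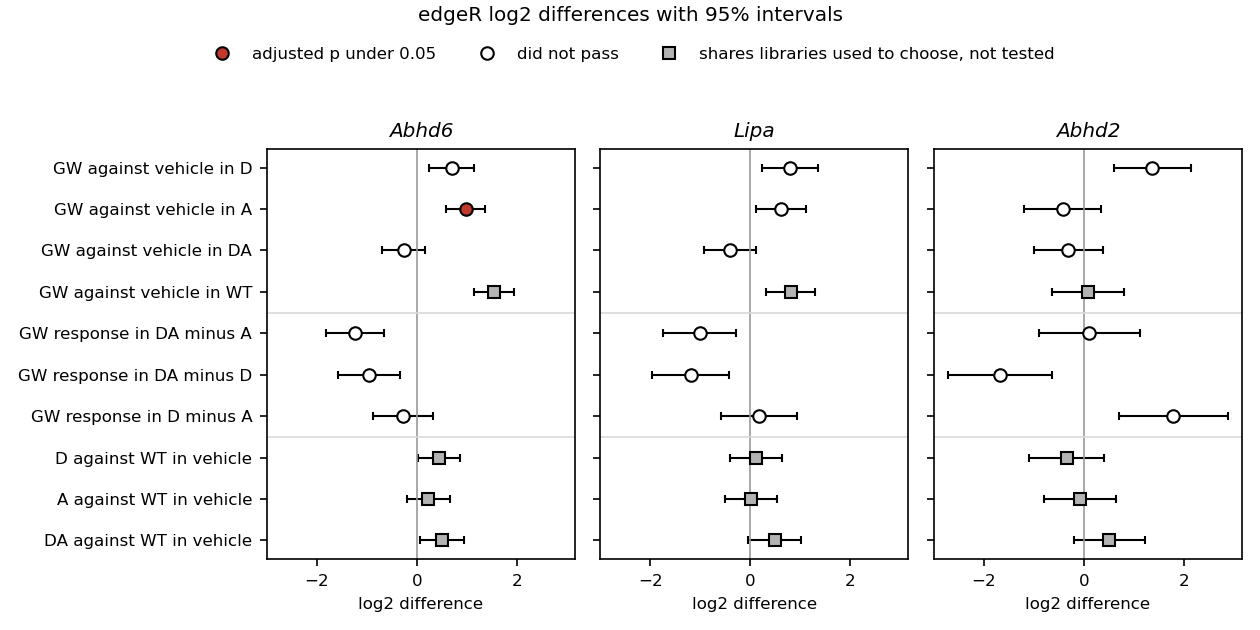
Log2 differences with 95% intervals (x axis) for Abhd6, Lipa and Abhd2 by comparison (rows): GW against vehicle per genotype, differences of that response, and D, A and DA against WT under vehicle. The filled red point is the only tested value past an adjusted p of 0.05, Abhd6 in A at 0.98. Grey squares share libraries used to choose the genes and carry no test.

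Other genes of lipid ester turnover were taken from 8 lists of 126 symbols, of which 43 passed the filter on low counts. Without the 4 members, 40 of 122 were measured and 0 passed in any genotype by edgeR, with 1, 4, 1 and 7 at an unadjusted p under 0.05 in D, A, DA and WT. These are 2.5%, 10%, 2.5% and 17.5% of the 40, against 3.24%, 3.59%, 3.2% and 6.18% of all tested genes, and 0, 3, 1 and 4 of them had positive values. Their log2 fold changes with GW were positive and negative for 24 and 16 genes in D, 21 and 19 in A, 18 and 22 in DA, and 21 and 19 in WT. Their medians were 0.06, 0.09, −0.0028 and 0.08 in that order of genotypes, against medians over all tested genes between −0.0018 and 0.0070.

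Among lipolysis genes 4 of 10 were measured, and in A all 4 had positive values, with Abhd6 the 1 that passed. Positive and negative values numbered 3 and 1 in D, 1 and 3 in DA, and 3 and 1 in WT. Hilpda, an inhibitor of the main triacylglycerol lipase, had log2 fold changes with GW of 0.13 ± 0.47 in D, 0.72 ± 0.31 in A, −0.08 ± 0.37 in DA and 0.83 ± 0.35 in WT (± standard error). The phospholipase Ddhd2 had 0.27 ± 0.37, 0.59 ± 0.33, −0.74 ± 0.37 and 0.49 ± 0.34 in the same order. Pnpla2, which encodes that triacylglycerol lipase, and Lipe, which encodes hormone-sensitive lipase, had 67 and 17 counts over all libraries and were not measured.

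Abhd6 and Abhd2 are named for the alpha/beta hydrolase domain, and 10 of 21 genes of this family were measured. In A, 3 of these had a positive and 7 a negative log2 fold change with GW, with a family median of −0.08, and Abhd6 alone passed. Positive and negative values numbered 6 and 4 in D, 7 and 3 in DA, and 4 and 6 in WT. The family medians there were 0.27, 0.10 and −0.11. Abhd11, a mitochondrial hydrolase, had values of 0.31 ± 0.24 in D, −0.10 ± 0.20 in A, 0.41 ± 0.22 in DA and −0.11 ± 0.20 in WT. Abhd12, a lysophosphatidylserine lipase, had −0.16 ± 0.40, −0.03 ± 0.31, 0.11 ± 0.33 and −0.92 ± 0.31 in that order, and Abhd14a had −0.23 ± 0.32, −0.35 ± 0.27, 0.35 ± 0.29 and −0.28 ± 0.28.

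Endocannabinoid turnover had 3 of 12 genes measured, and Faah, which hydrolyses fatty acid amides, had a log2 fold change with GW of 0.22 ± 0.38 in A, while Abhd4, which acts on N-acyl phospholipids, had 0.41 ± 0.30. Of 10 measured lysosomal genes out of 16, Lipa had the highest log2 fold change in A. The cholesterol carrier Npc2 had −0.10 ± 0.11 there, the acid ceramidase gene Asah1 had −0.10 ± 0.23 and the membrane protein gene Lamp1 had −0.20 ± 0.27. The carboxylesterases had 7 of 22 measured, and Ces2a, Ces2c and the esterase Aadac had log2 fold changes in A of 0.09 ± 0.21, 0.21 ± 0.17 and 0.26 ± 0.15. Lysophospholipases had 3 of 16 measured, with Lypla1 at −0.02 ± 0.17, Gdpd1 at 0.21 ± 0.24 and Pla2g4a at 0.22 ± 0.30 in A. Secreted lipases had 2 of 14 measured, Liph at 0.14 ± 0.25 and the colipase gene Clps at 0.23 ± 0.29, and Lpl had 1 count over all libraries. In glycerolipid synthesis, 8 of 19 were measured, with the lipoprotein assembly gene Mttp at 0.29 ± 0.20, the acyltransferase genes Mogat2 at −0.07 ± 0.23 and Agpat5 at −0.06 ± 0.20 in A.

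**Figure D3:**
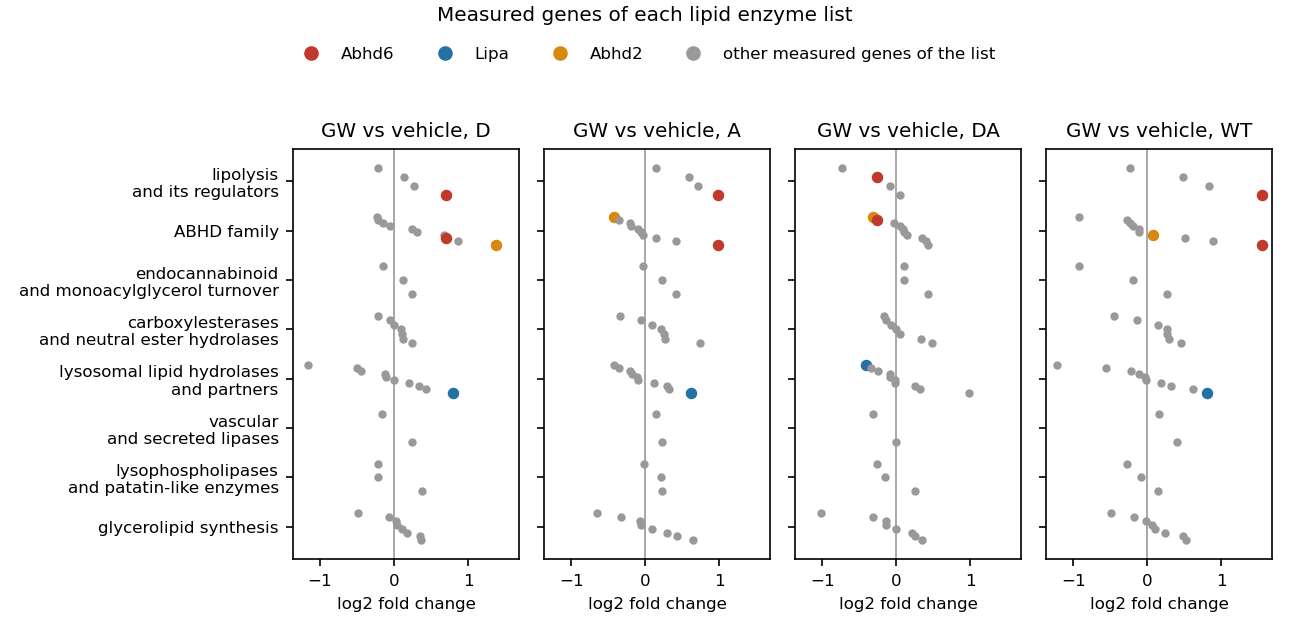
Log2 fold change with GW (x axis) of each measured gene of the 8 lists (rows) in D, A, DA and WT (panels), 1 point per gene. Abhd6 (red) is the highest of its lists in A and WT, and the other genes (grey) lie on both sides of 0.

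Among 4629 genes of the fit other than predicted genes, those with the highest Pearson correlation with Abhd6 in log2(CPM + 1) over the 37 libraries included Acot1 at 0.82, Angptl4 at 0.82, Eci2 at 0.80 and Crot at 0.75, against a median of 0.03 over all genes. Acot1 encodes an acyl-CoA thioesterase, Angptl4 a secreted inhibitor of lipoprotein lipase, Eci2 an isomerase of fatty acid oxidation and Crot a carnitine acyltransferase of peroxisomes. Lipa had 0.58, rank 24, and Abhd2 had 0.06, rank 2097. The 37 libraries include those of WT by which Abhd6 was chosen, so genes that differ with GW in WT are favoured in this ranking. These correlations are therefore descriptions with no test. The 37 points share the group differences and the library depth, and on deviations from group means, a measure chosen after seeing the data, the values were 0.41, 0.40, 0.40 and 0.27 for those 4 genes, 0.10 for Lipa and −0.03 for Abhd2. Those 4 genes then ranked 128, 165, 169 and 716 and Lipa 2102, and 0 of the 5 genes with the highest pooled correlation were among the 5 highest within groups. Acot1 averaged 20.1 ± 6.53 CPM with GW and 30.2 ± 13.3 CPM with vehicle in DA (SD, n = 5 and 4), and Angptl4 averaged 50.8 ± 14.4 CPM with GW and 50.8 ± 4.46 CPM with vehicle there. Eci2 averaged 73.2 ± 10.7 CPM with GW and 59.2 ± 13.8 CPM with vehicle in DA, and Crot 39.7 ± 6.30 CPM with GW and 42.0 ± 6.66 CPM with vehicle.

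**Figure D4:**
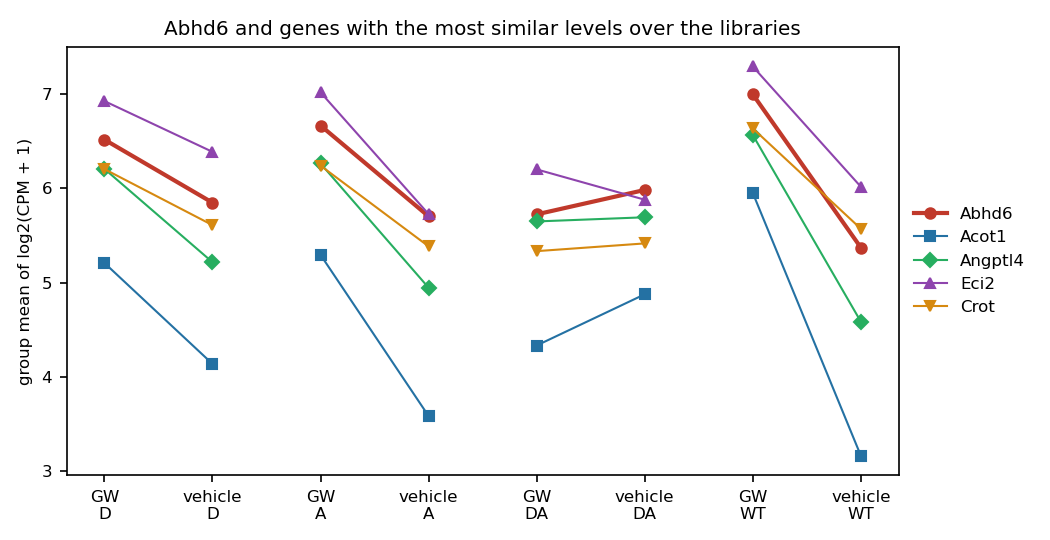
Group means of log2(CPM + 1) (y axis) of Abhd6 and the named genes with the most similar levels, by genotype with GW left of vehicle and lines joining the pair. Abhd6 has the higher mean with GW in D, A and WT, and in DA 5.72 with GW and 5.98 with vehicle.

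Cell type markers moved beside these values in some genotypes and against them in others. In D, A, DA and WT, 5, 4, 0 and 2 of 5 Paneth markers were higher with GW and the rest lower. In that order 3, 4, 3 and 4 of 4 measured goblet markers were higher. So were 2, 2, 0 and 1 of 4 measured stem cell markers and 3, 1, 3 and 4 of 5 epithelium markers. Of these lists 0 markers passed edgeR's test. At an unadjusted p under 0.05 were 1 stem cell marker in D, A and DA and 1 epithelium marker in D and A, all lower. Summed enterocyte markers ranged from 6225 to 6764 CPM with GW in D, against 4993 to 5892 CPM with vehicle, with 5 of 7 markers higher, 2 lower and 0 past edgeR's test (1 at an unadjusted p under 0.05). Summed enteroendocrine markers ranged from 102 to 127 CPM with GW in D, against 50.9 to 106 CPM with vehicle, and from 77.0 to 128 CPM with GW in WT, against 45.4 to 76.5 CPM with vehicle, with all 3 measured markers higher in both and 0 past edgeR's test (1 in D and 2 in WT at an unadjusted p under 0.05). In A, where Abhd6 rose, enteroendocrine markers ranged from 65.5 to 73.2 CPM with GW, against 59.0 to 108 CPM with vehicle, and enterocyte markers from 4734 to 7983 CPM with GW, against 4466 to 6315 CPM with vehicle. All 3 measured enteroendocrine markers were lower with GW in A, and of the enterocyte markers 3 were higher and 4 lower. By edgeR 0 of them passed in A, where 3 of 7 enterocyte markers (2 higher, 1 lower) and 1 of 3 enteroendocrine markers (lower) had an unadjusted p under 0.05. In WT 3 of 7 enterocyte markers were higher and 4 lower, and 3 of the 7 (2 higher, 1 lower) had an unadjusted p under 0.05. The sum of these 7 in WT ranged from 5628 to 7980 CPM with GW, against 4299 to 6919 CPM with vehicle. The median of that sum was 5719 CPM with GW and 5829 CPM with vehicle. In DA, Abhd6, Lipa and Abhd2 had lower means with GW. Enteroendocrine markers there ranged from 86.8 to 122 CPM with GW, against 59.0 to 85.3 CPM with vehicle. All 3 measured were higher, 0 passed edgeR's test and 1 had an unadjusted p under 0.05. Enterocyte markers in DA ranged from 3955 to 5018 CPM with GW, against 4649 to 6136 CPM with vehicle, with 2 of 7 higher, 5 lower and 0 past that test. The part of these markers in the values of Abhd6, Lipa and Abhd2 was not tested. In bulk organoid RNA, a different share of a cell type and a different level per cell cannot be told apart.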

How the data were processed

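The deposited table used here holds counts, in whole numbers, for each Ensembl gene, and a second deposited table, of log2 values, was not used. The tools named in the submitters' processing notes are edgeR 3.26.8, Salmon 1.1.0 and R 3.6.2, with the build mm10. The annotation release, the handling of molecular identifiers and strand are not given in the sources used here. Of 57 columns, 37 were joined to groups by treatment and genotype in their names, and 20 were not used: 19 with the letters KD and 1 of the 4 named GW in D. Symbols for 54179 genes and positions came from GENCODE vM21 (GRCm38). Promoter windows came from RefSeq, GRCm38.p6.

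From the counts, CPM was computed over plain library totals. Genes were filtered with filterByExpr by group, which left 4902, scaled by TMM and fitted over all 8 groups with edgeR 4.0.16 (glmQLFit, glmQLFTest) in R 4.3.3. Benjamini-Hochberg adjustment was over all genes of a comparison, with a threshold of 0.05. The spread between libraries is all that these p-values measure, and it may be technical, since no label ties a library to its own animal or culture. Script steps were tested on simulated data. DESeq2 1.42.0 and limma 3.58.1 were alternatives.

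The members and gene lists were chosen with earlier results of these data known. Named genes are the members, any list gene that passed, the 3 measured genes of each list with the highest mean CPM, and the 5 genes most correlated with Abhd6, of which 1 is not reported here.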

Additional observations from a re-analysis of the deposited data

How the results depend on the processing

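Counts of genes past the threshold depended on the filter, the test and the libraries. GW against vehicle gave 20 genes in WT, 0 in D, 15 in A and 0 in DA, and the response differences gave 4 for DA minus WT and 0 for the other 5. Under vehicle, the comparison with WT gave 2 genes for D, 4 for A and 16 for DA. Without a filter on low counts the GW counts were 45 in WT, 8 in D, 28 in A and 10 in DA, the vehicle counts were 18, 54 and 80 for D, A and DA, and the response differences were 8 for DA minus A, 9 for DA minus D, 10 for D minus A, 12 for D minus WT, 8 for A minus WT and 20 for DA minus WT. In libraries 1 to 36, counts were 11 for GW in WT, 3 for GW in A, 4 for D and 23 for A under vehicle, and 2 for DA minus WT. In libraries 37 to 60 they were 0 for D under vehicle, 2 for DA minus A, 2 for D minus A, 1 for A minus WT and 0 for DA minus WT. With only the groups compared they were 9 for GW in A, 4 for D and 1 for A under vehicle, and 1 for D minus A. DESeq2 gave 1 for GW in DA, 1 for DA minus D, 1 for D minus A and 7 for DA minus WT, and limma gave 1 for A and 9 for DA under vehicle, 1 for DA minus A and 1 for D minus WT. Blocking on the 2 runs of numbers gave 8 for A under vehicle, and leaving out the 4 columns with suffix 2 gave 0 for DA under vehicle. Leaving out single libraries gave 16 to 24 for GW in WT and 0 for GW in D and in DA. It gave 6 to 15 for GW in A, with 6 without GW library 5 and 8 and 9 without vehicle libraries 1 and 4. It gave 1 to 2 for D under vehicle, with 1 without WT vehicle library 3, 4 or 5. For A under vehicle it gave 0 to 10, with 0 without WT vehicle library 1, 3 or 5, 2 without library 4, and 9 and 10 without A vehicle library 4 or 5. For DA under vehicle each library left out lowered the count, to between 0 and 6. It gave 3 to 5 for DA minus WT, 0 to 1 for D minus A (1 without D vehicle library 2 or D GW library 3) and 0 for the other response differences.

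Abhd6 kept its direction with GW in D, A, DA and WT under the settings run. In A its log2 fold change was 0.98 with only the groups compared, 0.79 in libraries 1 to 36 and 1.27 in libraries 37 to 60, past the threshold in none of these, and 0.90 to 1.097 without single libraries. In WT it was 1.91 in libraries 1 to 36, 1.04 in libraries 37 to 60 and 1.39 to 1.66 without single libraries. In D and DA it was 0.53 to 0.86 and −0.32 to −0.19 without single libraries. The cause of these changes was not tested. Of 877 values of Abhd6, Lipa and Abhd2 under alternatives, 856 kept their side of the threshold or moved by less than their error, 3 no longer passed and 18 moved. Abhd6 in A was the only tested value past the threshold in the main fit, so for the others keeping that side says little. The Abhd6 response in DA minus A counted as kept at −1.72 in libraries 37 to 60, against −1.23 with a standard error of 0.29 in the main fit. Fits without a single library share nearly all their libraries. All 4 columns named GW in D were not run together, because 1 of them could not be assigned. No paired analysis was possible because the columns carry no replicate numbers. With 3 to 17 counts of Abhd2 and 0 or 1 of Mgll per library, depth limits what can be seen for both.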
